A study of Mus musculus with 3 samples.

Results

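The comparison described here is that of old muscle after an eicosapentaenoic acid (EPA) diet with old muscle after a diet deprived of EPA, by RNA sequencing of gastrocnemius and plantaris, the calf muscles, of male mice. It uses 2 of the 3 libraries of the study. The EPA library was made from pooled RNA of 6 C57BL/6J mice that received feed with 1 wt% EPA during 12 weeks that began at 75 weeks of age, and they were 87 weeks old at the end. The control library was made from pooled RNA of 6 C57BL/6J mice that received the EPA-deprived diet over the same 12 weeks. The other library, Young, was made from pooled RNA of 3 mice aged 24 weeks, whose strain is labelled C57BL/7J and whose diet is not given; it is given as a further value for each gene. Genes were joined across the tables by Ensembl gene ID, and all genes with a mean CPM of 1 or more (CPM, counts scaled to 1000000 per library) over the 3 tables were compared, which were 12966 of 42258 listed genes. The difference of a gene is log2(CPM + 1) in the EPA library minus that in the control library, so that a positive value means higher with EPA. Where 3 CPM values follow a gene they are those of Young, control and EPA, in that order, and a value in brackets after them is this log2 difference. No group has a second library, so no difference given here has an error between mice or library preparations, and none was tested.

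EPA is an omega-3 fatty acid of fish oil that is built into membrane phospholipids and competes with arachidonic acid for the enzymes that make eicosanoids. Free EPA and its derivatives bind the peroxisome proliferator-activated receptors (PPARs), which switch on genes of fatty acid uptake and oxidation, and it is known to lower the activity of the sterol regulatory element-binding proteins (SREBPs), which drive the synthesis of fatty acids and cholesterol. Skeletal muscle is made of slow, oxidative fibres and fast, glycolytic fibres, set in a collagen matrix with vessels, nerves, fat cells and resident immune cells.

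The recovered count totals were 57622886 for control, 55969822 for EPA and 57386394 for Young, so that counting intervals are narrow for abundant genes and wide for genes of a few CPM. Between 19189 and 19341 genes had a value above 0 in a library. All 10 genes of a skeletal muscle identity list, among them Acta1, Ckm and Ttn, were compared, and their summed CPM was 119660 in the control and 119670 in the EPA library. The deposited CPM were calculated with 5 divisors that change from gene to gene, which lowers the EPA minus control difference of each gene by between 0.006 and 0.071 on the log2 scale relative to each library's own total. A difference of that size is therefore not interpretable for single genes. Intervals given below are exact Clopper-Pearson 95% intervals of the log2 ratio, EPA over control, of recovered counts divided by their library total; they cover counting error only. Through the divisors and the added 1, the deposited difference of a gene can lie outside its interval, and far outside where 1 library is near 0. It understates the fold of genes with low CPM in either library.

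The EPA and control libraries were close. Of the 12966 genes, 55.54% lay within 1.1-fold of each other, 96.4% within 1.5-fold and 98.67% within 2-fold, and the median difference was -0.0255. At least 2-fold higher in the EPA library were 90 genes, which is 0.694% of those compared, and at least 2-fold lower were 83, or 0.64%. At 1.5-fold these were 219 genes (1.69%) higher and 248 (1.91%) lower. By any amount, 44.2% of the genes were higher and 55.8% lower as deposited. When the counts were instead divided by the library's own total the split turned to 53% higher and 47% lower, and with median-of-ratios scaling it was even. The counting interval lay above 0 for 3296 genes (25.4%) and below 0 for 2711 (20.9%). The share at least 2-fold apart was 1.87% among genes of 1 to 5 CPM and 0.741% where the mean CPM was 100 or more. Longer transcripts lay lower with EPA, with a Spearman's rho of -0.216 between the difference and transcript length across the 12966 genes, which share the same 2 libraries and are not independent.

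**Figure D1:**
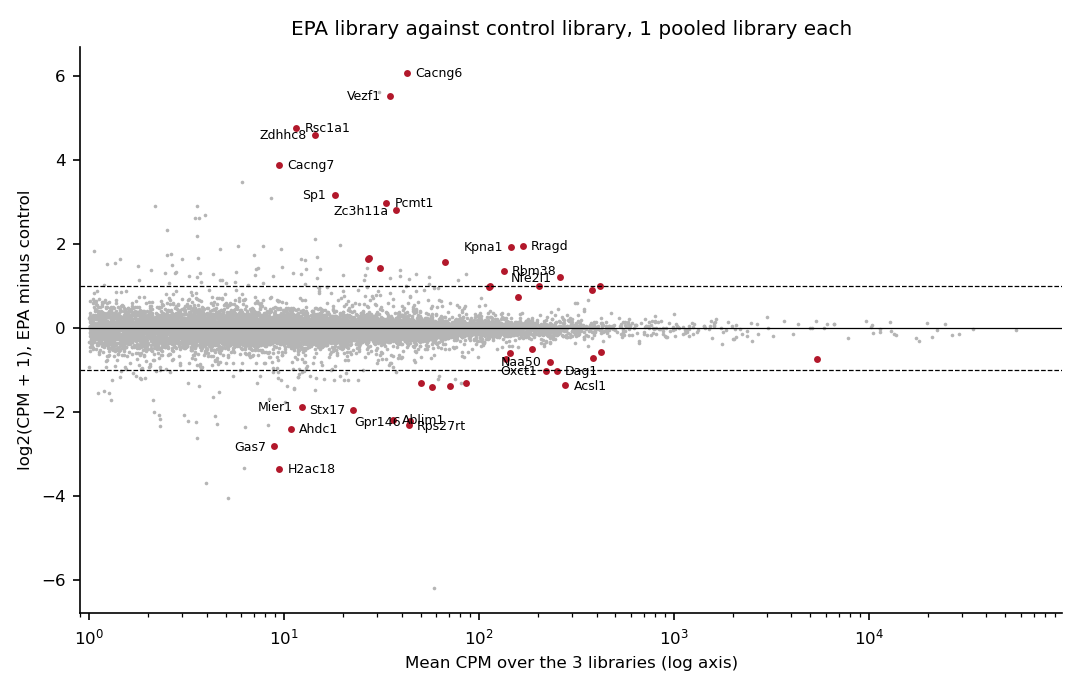
Difference of log2(CPM + 1), EPA minus control, against the mean CPM over the 3 libraries (log axis) for all 12966 compared genes. Grey points are genes, red points the 44 genes named by abundance and size of difference, and dashed lines mark 2-fold. Most genes lie near 0, and 90 genes lie at or above the upper line against 83 at or below the lower one.

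Genes were then grouped into 58 lists of pathways and cell type markers, of which 55 had at least 5 compared members. A list is said to lean when at least 75% of its compared members lie on one side and its median is at least 0.1 from that of all genes. By this rule 7 lists leaned lower in the EPA library and 3 leaned higher, and the others did not lean. Counts of members higher or lower by any amount depend on the scaling. With recovered counts over each library's total, the median changed sign in 12 of the 45 other lists with at least 5 compared members. These are descriptions of 2 libraries, to be read beside the 44.2% of all genes that were higher and their median of -0.0255.

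Genes of fatty acid use lay mostly at like levels in both libraries. Of 21 compared PPAR target genes 12 were higher and 9 lower in the EPA library, with a median of 0.034. With recovered counts this split turned to 15 higher and 6 lower, with a median of 0.0994, or 0.0869 relative to all genes. The exception by size was Acsl1, the long-chain acyl-CoA synthetase that activates fatty acids on entry to the cell. Acsl1 (ENSMUSG00000018796, chr8:46471037-46536051 of GRCm38) stood at 377 CPM in the Young library, 327 in the control library and 126 in the EPA library. Its difference was -1.36, with an interval of -1.34 to -1.26, so that EPA was the low library and control and Young were both high. Its relatives Acsl3, Acsl4, Acsl5 and Acsl6 differed by 0.00, -0.11, -0.12 and 0.09. Oxct1, which lets muscle burn ketone bodies, was at 149.97 CPM in the Young library, 342 in the control library and 168 in the EPA library, a difference of -1.02. Plin5, a coat protein that links lipid droplets to mitochondria, was at 25.2, 14.2 and 18.5 CPM in the Young, control and EPA libraries, and Mlycd, malonyl-CoA decarboxylase, at 112, 76.6 and 97.8 CPM in the same order. Both were higher in the EPA than in the control library, by 0.36 and 0.35. The PPAR targets most used as a readout of the receptors in muscle differed little: Pdk4, which spares glucose by blocking pyruvate dehydrogenase, by 0.04, Cpt1b, the gate of mitochondrial fatty acid import, by 0.05, Angptl4, an inhibitor of lipoprotein lipase, by -0.08 and Ucp3, a mitochondrial carrier, by 0.14.

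Of the 16 genes of fatty acid uptake, binding and activation 10 were lower, with a median of -0.0902. The transporter Cd36 was at 436, 336 and 323 CPM in Young, control and EPA and lipoprotein lipase, Lpl, at 797, 689.6 and 628 CPM, while the binding protein Fabp3 was at 561, 373 and 415 CPM and was the highest of the list by difference (0.15). Mitochondrial fatty acid oxidation was even narrower: all 18 members lay between -0.083 and 0.109, 8 higher and 10 lower. With recovered counts this split turned to 14 higher and 4 lower, and with median-of-ratios scaling to 13 and 5. In peroxisomal oxidation 13 of 16 were higher but the median was 0.0246. Its ends were Acot8, a peroxisomal thioesterase, at 5.48, 3.14 and 5.71 CPM (0.70) and Acox3, an oxidase of branched fatty acids, at 21.8, 22.3 and 15.9 CPM (-0.46).

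The nuclear receptors themselves split evenly, 9 of 16 higher. Ppara was at 6.64 CPM in the Young library, 11.1 in the control library and 6.997 in the EPA library, a difference of -0.59 with an interval of -0.78 to -0.41. Pparg, the receptor of fat cells, was at 6.71, 6.54 and 4.93 CPM in Young, control and EPA (-0.35), and the coactivator Ppargc1a, which promotes mitochondrial biogenesis, at 76.4, 85.1 and 61.2 CPM (-0.47). For Ppara the control library was the high one, and for Ppargc1a and Pparg the EPA library was the low one. Nr1h3, the oxysterol receptor LXR-alpha, lay the other way at 16.8, 11.8 and 14.99 CPM (0.32).

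Fatty acid desaturation and elongation leaned lower, with 11 of 13 members lower and a median of -0.133. Some of these enzymes, among them Fads1 and Fads2, make long polyunsaturated fatty acids from dietary precursors. What lies behind the lean was not tested. The desaturases Fads1 and Fads2 were at 12.7, 12.8 and 11.6 and at 1.86, 2.69 and 2.46 CPM in Young, control and EPA, differences of -0.14 and -0.09. The elongases Elovl5, Elovl6 and Elovl1 differed by -0.20, -0.26 and -0.17. The stearoyl-CoA desaturase Scd1 went against the list at 155, 227 and 242 CPM (0.09). Of the 13 intervals 3 lay above 0, those of Scd1, Tecr and Hacd3, and 2 lay below 0, those of Fads3 and Elovl5. Among all compared genes 25.4% lay above 0 and 20.9% below 0. The summed CPM of the list was 786.15 in control and 790.17 in EPA. The lean was lost with recovered counts, where 9 of 13 were lower with a median relative to all genes of -0.0955 (as deposited -0.107), and with median-of-ratios scaling, where 9 of 13 were lower. Of the 18 genes of fatty acid and triglyceride synthesis 12 were lower (9 with recovered counts), among them the SREBP target Fasn, fatty acid synthase, at 39.6, 42.4 and 32.3 CPM (-0.38), and Elovl6, named above. Agpat2, an acyltransferase of triglyceride synthesis, was higher at 1.86, 6.64 and 8.42 CPM (0.30). Cholesterol synthesis and SREBP2 targets had 17 of 23 members lower with a median of -0.0766, short of the rule; with recovered counts 14 were lower. Lss, lanosterol synthase, was at 3.64 CPM in the Young library, 5.19 in the control library and 2.32 in the EPA library, a difference of -0.90, and Idi1, an isomerase early in the pathway, at 6.55, 6.02 and 4.37 CPM (-0.39). Dhcr7 was at 5.99, 7.85 and 6.35 CPM (-0.27) and Tm7sf2, a sterol reductase, at 3.97, 3.401 and 4.25 CPM (0.25).

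Lipid droplet and lipolysis genes were higher in 10 of 14, with a median of 0.148. The share of 71.4% is just under the rule for a lean, which the list met with recovered counts (12 of 14 higher). The lipases Lipe and Pnpla2 were at 43.1, 33.3 and 45.5 and at 324, 253 and 297 CPM in Young, control and EPA, differences of 0.44 and 0.23. G0s2, an inhibitor of Pnpla2, was at 10.4, 7.28 and 10.3 CPM (0.45). In these 3 genes the control library was the low one. Mgll, which finishes lipolysis, was at 26.3, 96.5 and 87.8 CPM, with both old libraries high and a difference of -0.14.

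Enzymes that turn fatty acids into signalling lipids were at like levels, with 7 of 18 higher and a median of -0.0361, or 10 higher and 0.0203 with recovered counts. The cyclooxygenase Ptgs1 was at 5.71, 6.03 and 4.86 CPM (-0.26) and the 5-lipoxygenase gene Alox5 at 2.302, 2.72 and 2.65 CPM (-0.03). Ptgs2 and Alox15 stayed under the 1 CPM limit. Of 15 receptors of fatty acids and lipid mediators 6 could be compared. Ffar4, the cell surface receptor of omega-3 fatty acids, was at 0.0696, 0.107 and 0.106 CPM in Young, control and EPA, and Ffar1 had 0, 0 and 0.0178 CPM, where 3 counts equal 0.0521 CPM in the control and 0.0536 CPM in the EPA library. Cmklr1, the chemerin receptor that also binds an EPA-derived resolvin, was at 15.5, 15.6 and 13.96 CPM (-0.15).

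The contractile genes of slow fibres lay on one side. All 12 compared members were lower in the EPA than in the control library, with a median of -0.255 and a range of -0.499 to -0.134. An interval below 0 was found for 11 of the 12, and for 20.9% of all compared genes. Myh7, the myosin heavy chain that defines slow fibres, was at 66.4 CPM in the Young library, 178 in the control library and 126 in the EPA library, a difference of -0.50 with an interval of -0.54 to -0.45. The slow troponins were likewise highest in control: Tnnt1 read 36.9, 70.2 and 52.5 CPM in Young, control and EPA, Tnni1 18.5, 38.97 and 29.7 CPM and Tnnc1 25.3, 44.1 and 36.1 CPM. In all 4 of these genes the EPA library lay between the high control library and the low Young library. Casq2, the slow calsequestrin that stores calcium, was at 26.2, 31.5 and 22.8 CPM (-0.45), with EPA the lowest library. Atp2a2, the slow calcium pump, was at 184, 273 and 241 CPM (-0.18), and the slow light chains Myl3 and Myl2 differed by -0.28 and -0.14. The exception in the interval count was Myh7b, at 2.16, 3.05 and 2.46 CPM. In bulk RNA a smaller share of a cell or fibre type and less RNA per cell cannot be told apart. The summed CPM of the list was 1005.6 in Young, 1393.8 in control and 1163.4 in EPA. The median relative to all genes was -0.213 with recovered counts, and -0.288 and -0.264 after the trends with transcript length and GC content were subtracted.

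Fast fibre genes did not lean. Of 15 compared members 9 were higher and 6 lower, with a median of 0.0123. Within the list the myosins of the more oxidative fast fibres were lower, Myh2 at 1638, 2051 and 1578 CPM (-0.38) and Myh1 at 1675, 2447 and 2118 CPM (-0.21), while the light chain Mylpf was at 5420.0, 4974 and 5615 CPM (0.17) and the fast troponin Tnnt3 at 11629, 12638 and 14106 CPM (0.16). Embryonic and perinatal contractile genes leaned lower with 7 of 8; without genes that overlap another gene 2 of 3 were lower, too few for the rule. Myh3, the embryonic myosin of regenerating fibres, was at 2.22 CPM in the Young library, 7.76 in the control library and 4.06 in the EPA library, a difference of -0.79 with an interval of -1.104 to -0.64, so that control was the high library. Myh8, the perinatal myosin, was at 124, 123 and 119 CPM (-0.05). Myl6b was the member that lay higher, at 5.304, 4.85 and 7.03 CPM (0.46). Xirp1, a protein of damaged and remodelling myofibrils, was at 341, 334 and 261 CPM (-0.35). Sarcomere, Z-disc and M-band genes had 12 of 18 lower with a median of -0.119. Myom3, an M-band protein of slow and intermediate fibres, was at 47.9, 64.1 and 52.4 CPM (-0.29), and Tcap, the titin cap, lay higher at 1461, 1604 and 1863 CPM (0.22). Sln and Pln, small inhibitors of the calcium pump, were both lower with EPA, at 1.25, 3.302 and 2.14 CPM and 4.74, 6.86 and 5.01 CPM.

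**Figure D2:**
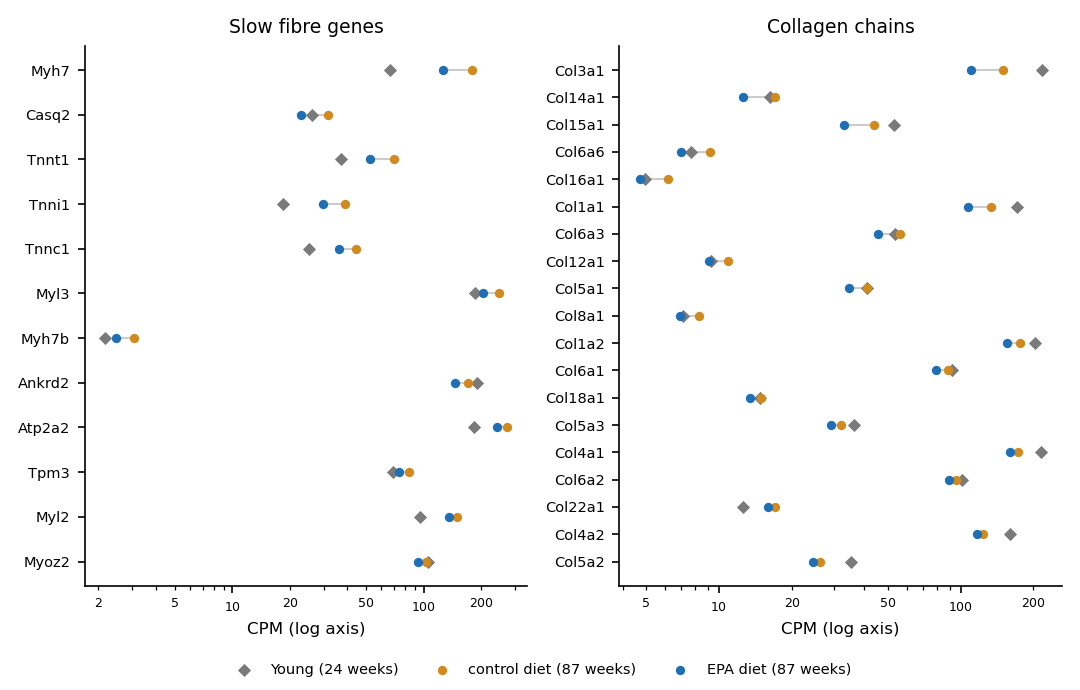
CPM (log axis) of the 12 slow fibre genes and the 19 collagen chains in the Young (grey diamonds), control (orange) and EPA (blue) libraries, 1 pooled library each, ordered by difference. In every row the blue point lies to the left of the orange one. For the 4 slow genes Myh7, Tnnt1, Tnni1 and Tnnc1 the Young library is lowest, whereas for Col3a1 and Col1a1 it is highest.

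Collagen chains leaned lower without exception. All 19 were lower in the EPA library, with a median of -0.23 and a range of -0.444 to -0.0895. The interval lay below 0 for 16 of them, against 20.9% of all compared genes. Col3a1, a chain of the loose fibrils around fibres, was at 217 CPM in the Young library, 150.01 in the control library and 109.99 in the EPA library, a difference of -0.44 with an interval of -0.43 to -0.33. Col1a1 and Col1a2, the chains of collagen I, were at 171, 134 and 107 and at 204, 176 and 156 CPM in Young, control and EPA. In these 3 genes Young was the highest library and EPA the lowest. Col15a1 of the basement membrane zone was at 53.2, 43.8 and 33.03 CPM (-0.40), and Col14a1, which binds to collagen fibrils, at 16.2, 17.04 and 12.6 CPM (-0.41). The basement membrane chains Col4a1 and Col4a2 differed by -0.11 and -0.09. Collagen mRNAs are long, and after the length trend was subtracted 18 of the 19 were lower with a median of -0.132 relative to all genes; with recovered counts all 19 stayed lower, with a median relative to all genes of -0.183. The wider matrix list, which holds TGF-beta responsive genes, had 21 of 25 lower with a median of -0.101, or -0.0759 relative to all genes, which is under the size needed for a lean. Postn, periostin, was at 13.9, 12.9 and 8.56 CPM (-0.53), Ccn2, connective tissue growth factor, at 39.2, 71.7 and 50.6 CPM (-0.49), Lum, lumican, at 28.6, 38.97 and 30.4 CPM (-0.35) and Loxl2, a collagen cross-linking enzyme, at 18.6, 21.8 and 17.1 CPM (-0.33). Markers of fibro-adipogenic progenitors, the cells that make most of this matrix, had 11 of 16 lower with a median of -0.0374 (7 lower and a median of 0.0173 with recovered counts) and a summed CPM of 3117 in control and 3225.7 in EPA. Among them Ly6a, the surface antigen Sca-1, lay far above the rest by difference, at 60.7 CPM in the Young library, 21.3 in the control library and 49.3 in the EPA library, a difference of 1.18.

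Because the slow fibre genes and the collagen chains each lay on one side, the 250 bases before their transcription starts were searched on both strands for 4 short motifs in the RefSeq promoter windows of GRCm38.p6. Windows were found for 11 of the 12 slow genes and 14 of the 19 collagen genes. The CCAAT box, written CCAAT, was in windows of 3 slow and 6 collagen genes, and in 33.8% of all 32851 windows. The GC box, GGGCGG, was in 3 slow and 9 collagen genes and in 32.7% of all windows. The TATA box, TATAAA, was in 3 slow genes and 1 collagen gene (12.4% of all windows), and the MCAT element, CATTCC, in 3 of each (12.6%). None was shared by most slow genes, while the GC box was in 9 of the 14 collagen genes with a window. The shares of all windows compare with counts of windows, which were 15 for slow and 16 for collagen genes. The CCAAT box was in 4 slow and 6 collagen windows and the GC box in 3 and 10. The TATA box was in 3 and 1 and the MCAT element in 3 and 3. Whether these motifs bear on the differences was not tested. The 150 bases before 1 of the annotated starts of Myh7 (chr14:54994627-54994776, minus strand) and before the start of Col1a2 (chr6:4505468-4505617, plus strand) are shown as examples, with the CCAAT box in capitals; its first base lies at -107 in Myh7 and at -109 in Col1a2.
Myh7: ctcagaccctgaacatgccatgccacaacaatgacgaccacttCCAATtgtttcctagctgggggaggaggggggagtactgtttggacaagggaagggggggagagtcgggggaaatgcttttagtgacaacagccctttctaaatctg
Col1a2: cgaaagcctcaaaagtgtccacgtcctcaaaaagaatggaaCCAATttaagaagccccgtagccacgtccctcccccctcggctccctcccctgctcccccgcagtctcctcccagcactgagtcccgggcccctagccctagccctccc

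Markers of other cell types differed by small amounts, in both directions. Adipocyte markers leaned higher, with 12 of 14 members higher and a median of 0.16. Adipoq, the fat cell hormone adiponectin, was at 16.8 CPM in the Young library, 15.9 in the control library and 18.4 in the EPA library, and Plin1, which coats the fat cell's droplet, at 10.1, 8.44 and 9.73 CPM; their differences were 0.20 and 0.18. Cfd, adipsin, was at 109.7, 59.1 and 85.3 CPM (0.52), Retn, resistin, at 7.05, 4.42 and 6.28 CPM (0.42) and Slc7a10, an amino acid carrier, at 1.61, 0.744 and 1.76 CPM (0.66). In Cfd, Plin1 and Retn control was the low library and Young the high one. Pparg and Lpl were the 2 members that were lower. The summed CPM of the list was 3938.8 in Young, 3513 in control and 3656.4 in EPA, and the lipid droplet genes above share Lipe, Plin1, Plin4 and Cidec with it; the part of fat tissue in the pooled samples in those differences was not tested.

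Schwann cell and myelin markers also leaned higher, in 11 of 13, with a median of 0.171. Without genes that overlap another gene 5 of 7 were higher, under the share the rule asks for. Sox10, the transcription factor of the lineage, was at 3.74 CPM in the Young library, 2.89 in the control library and 4.35 in the EPA library, a difference of 0.46. Mbp, a protein of the myelin sheath, was at 13.6, 15.4 and 18.2 CPM (0.23), and Cnp, an enzyme of myelinating cells, at 13.8, 12.3 and 15.4 CPM (0.30). Egr2, which drives myelination, lay lower at 1.11, 1.56 and 1.13 CPM. The summed CPM was 212.65, 205.69 and 226.12 in Young, control and EPA. Neuromuscular junction and denervation genes did not lean, with 7 of 15 higher. Ncam1, an adhesion molecule that spreads along denervated fibres, was at 8.53, 10.03 and 6.397 CPM (-0.58), Musk, the junction's kinase, at 23.9, 28.1 and 23.7 CPM (-0.24) and Rapsn, which clusters the acetylcholine receptors, at 12.8, 11.2 and 14.9 CPM (0.38).

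Of 14 markers of smooth muscle and pericytes 13 lay lower, a lean, with a median of -0.147. Pdgfrb and Rgs5, pericyte genes, were at 52.3, 47.4 and 38.9 and at 369, 356 and 306 CPM in Young, control and EPA (-0.28 and -0.22), and Myh11, the smooth muscle myosin, at 65.2, 68.2 and 59.5 CPM (-0.19). The exception was Des, desmin (0.17), which muscle fibres also express and which carries most of the list's summed CPM. Endothelial markers were lower in 11 of 14 with a median of -0.0614 (8 of 14 with recovered counts). Flt1, a receptor of vascular endothelial growth factor, was at 116, 109.8 and 82.2 CPM (-0.41), while Cldn5, a tight junction protein, lay higher at 24.1, 9.22 and 13.003 CPM (0.45). The growth factor itself, Vegfa, was at 176, 166 and 140.1 CPM (-0.24), and belonged to the myokines and growth factors, of which 12 of 15 were lower with a median of -0.15, a lean that was lost with recovered counts (10 of 15 lower) and under 4 other alternatives. In that list Igf1 was at 29.5, 23.7 and 21.3 CPM (-0.15) and Ostn, musclin, at 30.2, 66.5 and 56.5 CPM (-0.23). Nrg4, an adipose-derived growth factor, lay higher at 1.11, 0.971 and 1.74 CPM (0.47).

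MHC class I and peptide loading genes, which present antigens to T cells, leaned higher in 14 of 17, with a median of 0.13. H2-Q4 was at 13.9, 14.2 and 18.2 CPM in Young, control and EPA, H2-Q6 and H2-Q7 differed by 0.27 and 0.32, and the classical chain H2-D1 was at 125, 118 and 129 CPM (0.13). H2-K1 differed by 0.01. The light chain B2m was at 171, 171 and 183 CPM (0.10) and the peptide transporters Tap1 and Tap2 differed by 0.21 and 0.26. The loading factors Tapbp and Erap1 lay lower, by -0.16 and -0.34. MHC class I genes are close in sequence, so the split of reads among the H2 genes is uncertain. Of 19 interferon-stimulated genes 6 were higher, with a median of -0.0365, but 11 were higher with a median of 0.00713 with recovered counts. Ifit1 was at 2.36, 4.07 and 2.998 CPM (-0.34).

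Inflammatory cytokine and NF-kappaB genes did not lean. Of 16 compared 12 were lower, with a median of -0.0999, and 10 were lower with recovered counts. An interval above 0 was found for 3 and below 0 for 3, against 25.4% and 20.9% of all compared genes. Nfkbia was at 45.9, 46.2 and 39.7 CPM (-0.22) and Il6ra, the interleukin-6 receptor, at 6.26, 9.07 and 6.35 CPM (-0.45). The chemokine Ccl8 lay against the list at 1.97 CPM in the Young library, 2.57 in the control library and 6.68 in the EPA library, a difference of 1.11 with an interval of 1.15 to 1.72. Complement genes were higher in 13 of 18, with a median of 0.0969. C4b was at 29.6, 40.3 and 50.4 CPM (0.31), and Cd59a, which shields cells from complement, lay against the list at 30.4 CPM in the Young library, 23.7 in the control library and 9.55 in the EPA library, a difference of -1.23. Macrophage markers split into 8 higher and 7 lower of 15, with a summed CPM of 307.88 in control and 311.88 in EPA. MHC class II genes were higher in 5 of 7, with Cd74 at 125, 141 and 157 CPM. None of 15 T and natural killer cell markers reached the 1 CPM limit, with Cd3e at 0, 0.159 and 0.208 CPM and both Cd3d and Cd8b1 at 0 in each library. Of 10 neutrophil markers 2 were compared, and Ly6g was at 0 in every library. All 4 compared B and plasma cell markers were higher, Ighg2c at 3.42, 13.8 and 16.3 CPM (0.23) and Jchain at 0.196, 1.31 and 1.75 CPM (0.25). Of 7 red cell genes 4 were higher, and Hba-a1 was at 479, 179.98 and 185 CPM, with Young high and both old libraries alike.

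**Figure D3:**
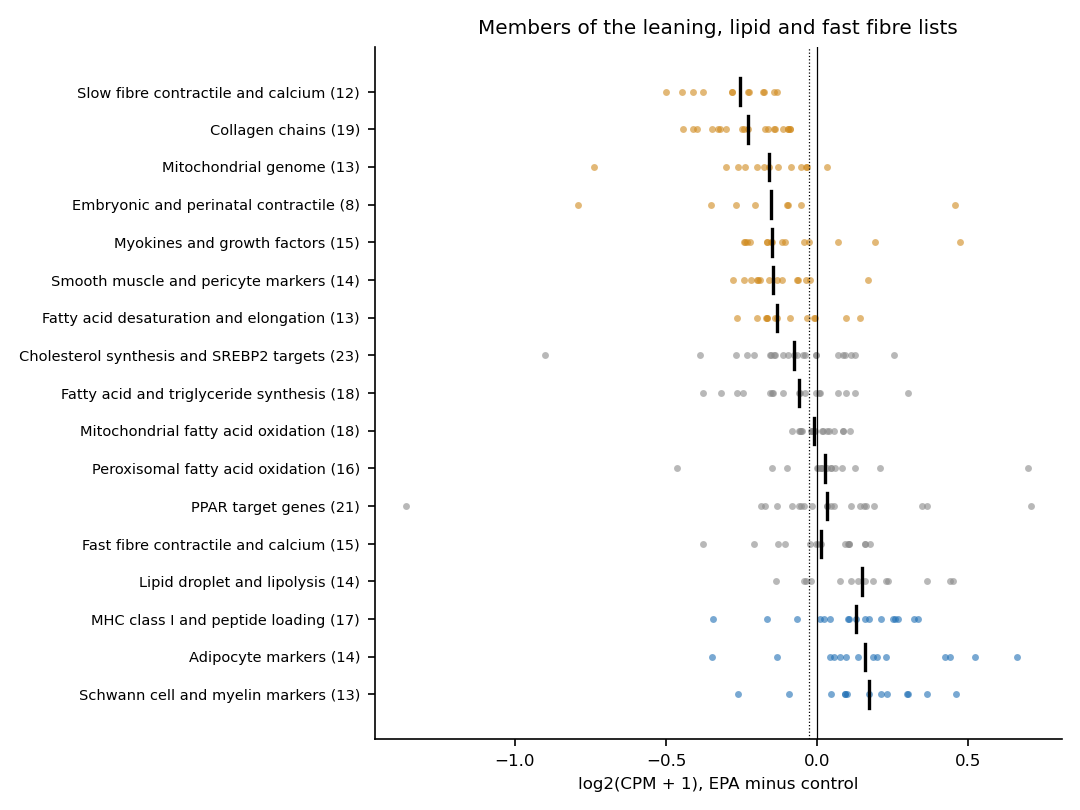
Difference of log2(CPM + 1), EPA minus control, for each compared member (points) of the lists that leaned lower (orange) or higher (blue) and of some that did not lean (grey). The grey lists are fast fibre genes, PPAR targets, mitochondrial and peroxisomal oxidation, fatty acid and triglyceride synthesis, cholesterol synthesis, and lipid droplet and lipolysis. Other lipid lists are not drawn. Each list median is a black bar, with the number of members in brackets. The dotted line is the median of all genes, -0.0255. The 12 slow fibre genes and 19 collagen chains lie wholly to its left.

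The 13 protein genes of the mitochondrial genome leaned lower in 12, with a median of -0.159, and their summed CPM was 224460 in Young, 209540 in control and 190670 in EPA. Among the complex I subunits mt-Nd2 was at 19642, 18896 and 15339.7 CPM (-0.30) and mt-Nd5 at 18069, 18673 and 15824 CPM (-0.24). The outlying member was mt-Nd6, at 6449 CPM in the Young library, 6169 in the control library and 3698 in the EPA library, a difference of -0.74. mt-Nd6 is the only one of the 13 on the light strand and is overlapped by another gene, and whether the counting used strand is not given in the sources used here, so its value is uncertain. The oxidase subunits mt-Co1 and mt-Co2 differed by -0.04 and 0.03. After the trend with GC content was subtracted 8 of the 13 were lower, with a median of -0.0488, so that the lean was lost. The nuclear genes of the same complexes did not lean. Of 35 complex I subunits 21 were higher (27 with recovered counts), with a median of 0.044. Of 35 subunits of complexes II to V 21 were higher (26 with recovered counts), with a median of 0.0189. For complexes II to V this turned to 15 higher and -0.0128 after the length trend was subtracted. Cox4i1, the nuclear subunit of cytochrome oxidase, was at 348 CPM in the Young library, 229.8 in the control library and 349.6 in the EPA library, a difference of 0.60, and Atp5d, a subunit of ATP synthase, at 313, 255 and 388 CPM (0.60). Ndufc1 was at 98.9, 56.1 and 80.5 CPM (0.51). In Cox4i1, Atp5d and Ndufc1 control was the low library. Ndufb5 lay the other way at 229, 194 and 137 CPM (-0.50), with EPA low. Genes of mitochondrial dynamics and biogenesis were higher in 8 of 17 (10 with recovered counts), and of pyruvate dehydrogenase and the tricarboxylic acid cycle in 11 of 23 (15 with recovered counts), with all of the latter between -0.145 and 0.17.

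In glucose handling single genes stood out of lists that did not lean. Glycolytic enzymes were higher in 12 of 18, with a median of 0.0171. Pfkfb3, whose product speeds glycolysis at phosphofructokinase, was at 42.1 CPM in the Young library, 61.7 in the control library and 152 in the EPA library, a difference of 1.29 with an interval of 1.32 to 1.43. Gapdh was at 642 CPM in the Young library, 372 in the control library and 251 in the EPA library, a difference of -0.57, and stayed lower, by -0.49, when summed with 4 near-identical copies. Eno3, the muscle enolase, was at 2805, 2818 and 3415 CPM (0.28). Of 16 genes of glycogen metabolism 9 were lower (7 with recovered counts). Gys1, the muscle glycogen synthase, was at 278 CPM in the Young library, 537 in the control library and 329.5 in the EPA library, a difference of -0.70 with an interval of -0.72 to -0.67, and the control library was the high one. Ppp1r3c, which brings a phosphatase to glycogen, was at 776, 679.8 and 532 CPM (-0.35), and Ppp1r3d at 4.89, 4.11 and 6.53 CPM (0.56). Insulin signalling and glucose uptake had 13 of 19 lower with a median of -0.0696, which turned to 7 lower with a median of 0.035 after the length trend was subtracted, with Irs2 at 20.5, 26.4 and 21.6 CPM (-0.28).

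Lists of growth, protein turnover and stress held few differences of size. Of 19 genes of the atrophy ubiquitin ligases and the FoxO axis 10 were higher: Fbxo32, atrogin-1, was at 286, 229.9 and 278 CPM (0.27), and Ddit4, an mTORC1 inhibitor induced by glucocorticoids and hypoxia, at 38.2 CPM in the Young library, 51.3 in the control library and 31.6 in the EPA library, a difference of -0.68. Satellite cell and myogenic regulators were lower in 8 of 12 (6 with recovered counts), with Pax7, the stem cell marker, at 2.37, 2.13 and 1.32 CPM (-0.43). Proteasome subunits split into 14 higher and 11 lower, with Psma3 at 55.8, 36.5 and 49.3 CPM (0.42). Autophagy and lysosome genes were higher in 15 of 22 with a median of 0.0691. Farthest from the list lay Stx17, which fuses the autophagosome with the lysosome, at 30.6 CPM in the Young library, 30.1 in the control library and 7.09 in the EPA library, a difference of -1.94 with an interval of -2.24 to -1.92. Heat shock and chaperone genes were lower in 14 of 20; Dnajb4, a co-chaperone, was at 76.9 CPM in the Young library, 74.8 in the control library and 31.99 in the EPA library, a difference of -1.20. In Stx17 and Dnajb4 EPA was the low library, and control and Young lay within 1.1-fold of each other. In the unfolded protein and integrated stress response 14 of 25 were lower. Xbp1, a transcription factor of that response, was at 32.3 CPM in the Young library, 31.4 in the control library and 78.1 in the EPA library, a difference of 1.29 with an interval of 1.24 to 1.404, and EPA was the high library. Others on the list differed less, as Sdf2l1 at 4.29, 2.79 and 3.94 CPM (0.39) and Chac1, a glutathione-degrading enzyme, at 94.5, 83.2 and 120.3 CPM (0.53). NRF2 targets and antioxidant genes were higher in 13 of 21 (16 with recovered counts and 17 with median-of-ratios scaling). Among them were Gpx3 at 361, 289 and 383 CPM (0.40), Prdx6 at 73.4, 58.6 and 76.8 CPM (0.38) and Nqo1 at 31.3, 25.1 and 31.998 CPM (0.34). In each of these 3 control was the low library.

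Immediate early genes, which respond within minutes to contraction or handling, were lower in 15 of 19, with a median of -0.108. Fos was at 25.8 CPM in the Young library, 70.96 in the control library and 52.5 in the EPA library, a difference of -0.43, while Nr4a3 was at 12.9, 10.3 and 21.3 CPM (0.98) and Junb at 32.4, 34.6 and 44.3 CPM (0.35). Of 16 glucocorticoid-responsive and metallothionein genes 12 were lower (9 with recovered counts), and Tsc22d3 lay higher at 239, 199 and 261 CPM (0.39). Clock genes were higher in 8 of 19 (10 with recovered counts): Nr1d1, a repressor of the clock, was at 223, 176 and 219 CPM (0.31), Clock at 24.7, 25.9 and 20.7 CPM (-0.32) and Npas2 at 2.05, 1.84 and 0.801 CPM (-0.66). Among p53 targets and senescence genes 9 of 16 were higher, with Sesn2 at 3.55, 2.79 and 4.54 CPM (0.55) and Cdkn1c at 35.7, 30.8 and 24.1 CPM (-0.34).

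Cytosolic ribosomal proteins were higher in 31 of 48, with a median of 0.0623, or in 40 with a median of 0.0983 with recovered counts. The member farthest out was Rps27, at 120.4 CPM in the Young library, 69.6 in the control library and 115 in the EPA library, a difference of 0.71. Rps27 has a retrotransposed copy, Rps27rt, which was at 61.5 CPM in the Young library, 58.2 in the control library and 10.9 in the EPA library, a difference of -2.31 and the lowest among named genes of 20 to 100 CPM. For Rps27 (chr3:90212522-90213651, minus strand) and Rps27rt (chr9:114982366-114982739, minus strand) the longest reading frame in the annotated protein-coding transcripts was taken as the coding sequence. Each has 255 bases, and they differ at 0 of them. The sequence is printed to show what the pair shares, with start and stop codons in capitals.
Rps27 and Rps27rt: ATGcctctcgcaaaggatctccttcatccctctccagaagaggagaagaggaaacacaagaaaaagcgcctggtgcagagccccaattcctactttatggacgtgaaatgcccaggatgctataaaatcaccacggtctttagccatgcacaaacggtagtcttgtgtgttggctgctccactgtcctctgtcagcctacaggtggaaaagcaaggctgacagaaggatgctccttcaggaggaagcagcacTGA
Reads from within this stretch cannot be assigned to one gene or the other by sequence, and the sum of Rps27rt and Rps27 was 181.8 CPM in Young, 127.8 in control and 125.8 in EPA, a difference of -0.02. The separate values of Rps27 and Rps27rt are therefore uncertain. Without Rps27, ribosomal members of the list lay between -0.166 and 0.34, with Rpl28 at 139, 109 and 138 CPM (0.34) and Rpl11 at 96.7, 105 and 126 CPM (0.27). The list does not hold Rpl7a, which differed by 1.63 and is described with its copies below.

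Where the mean CPM was 100 or more, the largest positive differences fell into sets that differ in which library stands apart. In the first set control was the low library and EPA lay near Young. Rragd (ENSMUSG00000028278, chr4:32983037-33022180), a GTPase that signals amino acid supply to mTORC1, was at 213 CPM in the Young library, 58.2 in the control library and 229 in the EPA library, a difference of 1.96 with an interval of 1.99 to 2.101. Kpna1 (chr16:35978750-36037131), an importin that carries proteins into the nucleus, was at 193, 50.5 and 195 CPM in the same order, a difference of 1.93. Rbm38, an RNA-binding protein of the p53 response, was at 169.6, 64.1 and 166 CPM (1.36). Pdlim5, a Z-disc scaffold, was at 479.7, 226 and 429 CPM (0.92), and Strn3, a phosphatase regulator, at 176, 111 and 186 CPM (0.74). Nfe2l1, the transcription factor that induces proteasome genes, was at 387, 118 and 274 CPM (1.21), with control low and EPA between control and Young. In the second set EPA was the high library and control lay near Young. H19, an imprinted long non-coding RNA, was at 78.01 CPM in the Young library, 87.7 in the control library and 177 in the EPA library, a difference of 1.00. Mbnl1, a splicing regulator of muscle, was at 146, 153 and 306 CPM (1.00). Coq8a, which is needed for coenzyme Q synthesis, was at 314, 311 and 622 CPM (1.00). Il6st, the signalling receptor gp130 of interleukin-6, was at 82.8, 85.2 and 168 CPM (0.97). In none of these 4 did Young and control differ by more than 1.5-fold.

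The largest negative differences in the same class showed both kinds as well. EPA was the low library for Acsl1, described above, and for Dag1 (chr9:108204634-108263958), dystroglycan, which ties the fibre to its matrix, at 302 CPM in the Young library, 299 in the control library and 148 in the EPA library, a difference of -1.02 with an interval of -1.05 to -0.98. It was also low for Naa50, an N-terminal acetyltransferase, at 250.2, 281 and 161 CPM (-0.80) and for Oaz1, the antizyme that limits polyamine synthesis, at 163, 157 and 93.6 CPM (-0.74). Control was the high library for Oxct1 and Gys1, given above, and for Itgb1, the integrin beta chain, at 116, 191 and 125 CPM (-0.60). Gapdh and Ndufb5 followed the order Young, control, EPA from high to low.

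**Figure D4:**
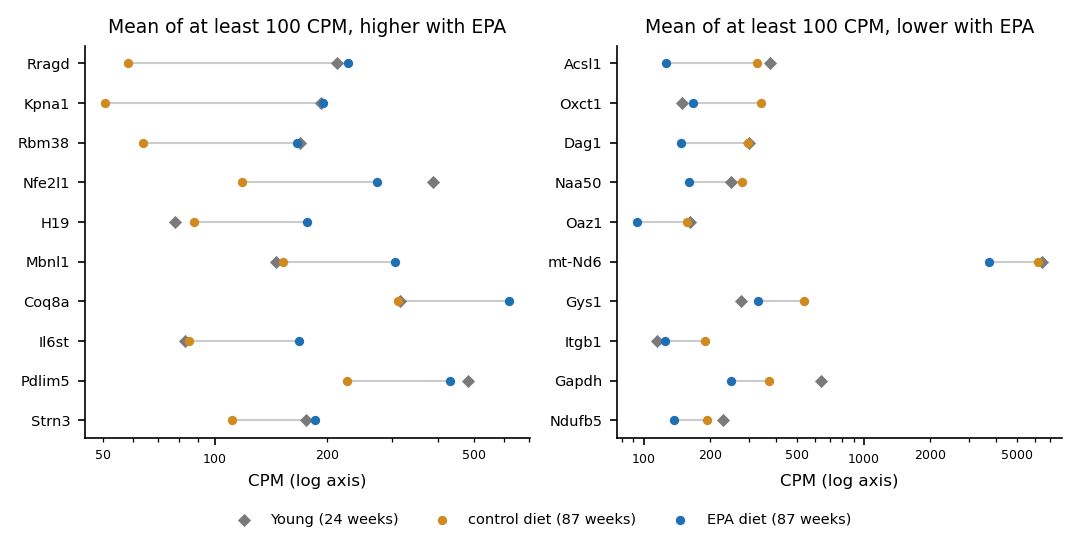
CPM (log axis) in the Young (grey diamonds), control (orange) and EPA (blue) libraries, 1 pooled library each, for the 10 genes highest and the 10 genes lowest in EPA relative to control where the mean CPM was 100 or more. For Rragd, Kpna1 and Rbm38 the blue and grey points lie together and control stands apart; for Mbnl1, Coq8a, Il6st, Dag1 and Oaz1 the orange and grey points lie together and EPA stands apart.

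From 20 to 100 CPM the differences were larger. Cacng6 (chr7:3424195-3435667), a gamma subunit of voltage-gated calcium channels, was at 61.1 CPM in the Young library, 0 in the control library and 66.4 in the EPA library. Set against a floor of 3 counts in the control library, it was 1280-fold higher in the EPA library. The lower limit of its interval was 10.02. Vezf1 (chr11:88068279-88084729), a zinc finger factor of vessels, was at 49.6 CPM in the Young library, 0.212 in the control library and 54.7 in the EPA library, a difference of 5.52 with an interval of 7.27 to 9.04. Pcmt1, a protein repair methyltransferase, was at 43.7, 5.53 and 50.7 CPM in the same order (2.99), and Mob4, of the striatin complex, at 43.7, 12.8 and 36.4 CPM (1.44). In Cacng6, Vezf1, Pcmt1 and Mob4 EPA lay near Young and control was low. In Nktr, a cyclophilin-like gene, at 22.8, 13.5 and 45.2 CPM (1.67), and in Ide, which degrades insulin, at 23.004, 44.3 and 134 CPM (1.57), EPA was the high library. On the other side, Gpr146, an orphan receptor, was at 66.4 CPM in the Young library, 54.7 in the control library and 10.97 in the EPA library, a difference of -2.22 with an interval of -2.38 to -2.13. Ube2g2, a ubiquitin-conjugating enzyme of the endoplasmic reticulum, was at 89.7, 88.6 and 33.4 CPM (-1.38), and Pacsin2, which bends membranes, at 62.3, 63.4 and 24.9 CPM (-1.31). In these 3 genes, and in Stx17 above, EPA was the low library. Ablim1, an actin-binding LIM protein, was at 17.7, 75.4 and 15.8 CPM (-2.18), Rab6a, a Golgi GTPase, at 35.1, 99.01 and 36.9 CPM (-1.40) and Mapk14, the p38-alpha kinase, at 66.6, 136 and 53.9 CPM (-1.32). In these 3 control was the high library and EPA lay near Young.

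From 5 to 20 CPM Sp1, a factor that binds GC boxes, was at 29.2 CPM in the Young library, 1.72 in the control library and 23.5 in the EPA library, a difference of 3.17 with an interval of 3.55 to 4.16. Zdhhc8, a palmitoyltransferase, was at 19.9, 0 and 23.3 CPM in the same order, and Cacng7, a neighbour of Cacng6 on chromosome 7, at 14.4, 0 and 13.8 CPM. Set against the floor of 3 counts in the control library these were 448-fold and 266-fold higher with EPA. The lower limits of their intervals were 8.51 and 7.75. Gas7, with 1.89, 22.5 and 2.34 CPM, differed by -2.81. Ahdc1 had 4.23, 24.4 and 3.85 CPM (-2.39). Mier1 had 9.101, 22.3 and 5.396 CPM (-1.86). All 3 were high in the control library, and in Gas7 and Ahdc1 EPA lay near Young.

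Some genes with large differences overlap another gene or have a near-identical copy, and how reads were divided among them was not tested. The share at least 2-fold apart was 1.91% among genes that overlap another gene on the same strand and 1.13% among genes that overlap none. For 62 genes, those named above by abundance or at least 1.5-fold apart on a list, the CPM was also summed with partners, meaning genes that overlap on the same strand or share at least 95% identity over at least 50% of the shorter transcript. Of 38 that were at least 2-fold apart alone, 33 were so as a sum, and of the 12 of these with a partner 7 were. Zc3h11a, of mRNA export, was at 17.9 CPM in the Young library, 11.2 in the control library and 83.8 in the EPA library, a difference of 2.80, and its partner Gm38394 at 95.4, 80.999 and 0.139 CPM. Their sum was 113.4, 92.2 and 83.9 CPM in Young, control and EPA, so that the difference turned to -0.13. Rsc1a1 was at 0.191, 0.286 and 34.04 CPM, a difference of 4.77 with an interval of 6.25 to 7.76. It lies within Ddi2, at 52.5, 68.3 and 64.9 CPM, and the sum differed by 0.52. Rpl7a was at 35.9, 10.3 and 34.1 CPM (1.63), and differed by 0.31 when summed with its 25 partners. H2ac18, a histone gene, was at 18.95, 9.24 and 0 CPM. Set against the floor of 3 counts in the EPA library, it was 172-fold lower with EPA, and the upper limit of its interval was -7.13. As a sum with 5 partners it differed by -0.36. The sums for Rbm38, H19, Mbnl1, Pfkfb3, Oxct1 and Rab6a differed by 1.36, 1.00, 1.00, 1.28, -1.02 and -1.40, close to the genes alone.

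**Figure D5:**
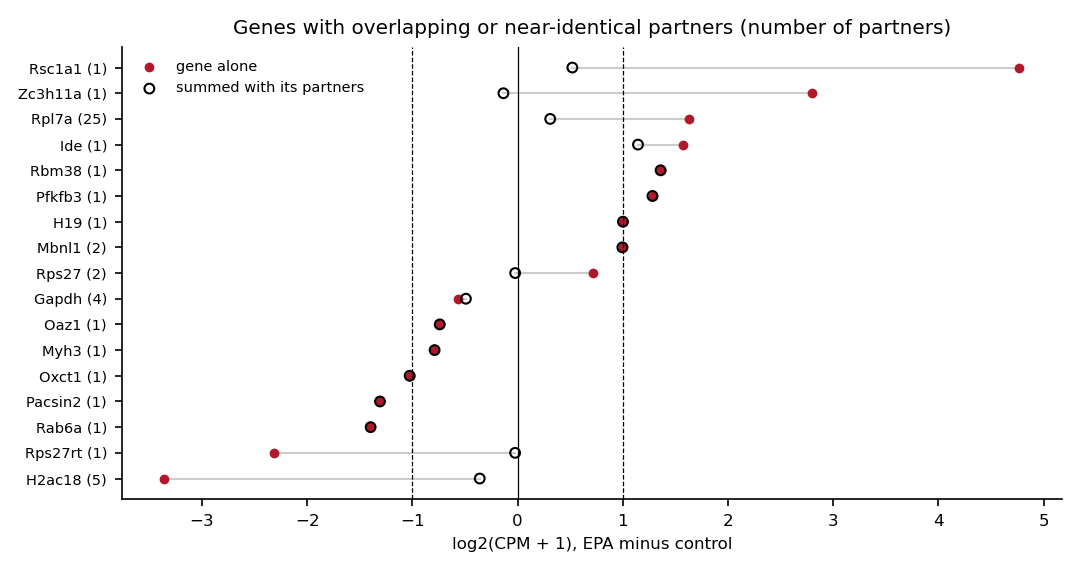
Difference of log2(CPM + 1), EPA minus control, for the 17 genes with at least 1 partner above 0, alone (red) and summed with their partners (open circles); the number of partners is in brackets and dashed lines mark 2-fold. The sums of Rsc1a1, Zc3h11a, Rpl7a, Rps27rt and H2ac18 lie inside the lines, whereas those of Ide, Rbm38, Pfkfb3, Oxct1, Pacsin2 and Rab6a stay outside them.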

How the data were processed

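RNA was sequenced from 3 pooled libraries, 1 per group. The submitters' processing notes name HISAT2 2.1.0, StringTie 1.3.4d, R 3.5.0 and the mouse build GRCm38, without saying which step made the values. The values are CPM per gene as the authors deposited them. Every CPM above 0 became a whole count when multiplied by 1 of 5 divisors (tolerance 1e-06), which gave the recovered counts and totals. The CPM were used as deposited, with log2(CPM + 1) and a mean of at least 1 CPM. Analyses used Python 3.11.15, numpy 2.4.6, pandas 2.3.3 and scipy 1.17.1, and blastn 2.17.0 for copies; coordinates are from GENCODE vM21 (GRCm38), which held 42256 of the 42258 gene IDs, and promoter windows from RefSeq (GRCm38.p6). The steps were tested on simulated data. Named genes are the 10, 8 and 4 largest differences per direction at a mean of at least 100, 20 to 100 and 5 to 20 CPM among descriptive symbols, and per list the 4 largest plus all at least 1.5-fold apart; further list members were named after their values were seen. The comparison and the gene lists were chosen with earlier results of these data known. Alternatives were other pseudocounts, filters and scalings, recovered counts, removal of overlapping genes and, chosen after seeing the data, GC trend subtraction and summing of copies.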

Additional observations from a re-analysis of the deposited data

How the results depend on the processing

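Each result was recomputed under up to 12 alternatives, 1 choice at a time. The 90 genes at least 2-fold higher became 219 at 1.5-fold, 58 at a mean of at least 5 CPM, 47 with a pseudocount of 5 and 39 without genes that overlap another gene. The 83 genes lower became 248, 53, 31 and 26 under the same alternatives; with a pseudocount of 0.1 there were 129 higher and 135 lower. With the other alternatives both counts stayed within 1.5 times, between 77 and 119. Leaving out overlapping genes left higher 5 of 5 members in MHC class I and 5 of 7 in Schwann cell markers (6 of 7 at a mean of at least 5 CPM), and lower 5 of 5 in collagen chains, 2 of 3 in embryonic contractile genes, 4 of 6 in desaturation and elongation, 2 of 3 in the mitochondrial genome, 7 of 9 in myokines, 4 of 4 in slow fibre genes and 8 of 8 in smooth muscle markers. Collagen chains, MHC class I and adipocyte markers kept their lean under all 12 alternatives run on the lists, and slow fibre and embryonic contractile genes under the 11 that left at least 5 members. Desaturation and elongation lost it under 5: 9 of 13 lower with recovered counts and with median-of-ratios scaling, a median relative to all genes of -0.0818 with a pseudocount of 5 and of -0.0743 without a filter, and the removal of overlapping genes. Myokines lost it under 5: 11 of 15 lower with median-of-ratios scaling and after the length trend was subtracted, 10 of 15 with recovered counts and after the GC trend was subtracted, and a relative median of -0.0495 with a pseudocount of 5. Smooth muscle markers lost it with a pseudocount of 5 (-0.0985), Schwann cell markers without overlapping genes, and the mitochondrial genome after the GC trend was subtracted (8 of 13). Of the 45 lists of at least 5 compared members that did not lean, 19 had a median of the other sign under some alternative. For 12 of them this held with recovered counts. Lipid droplet and lipolysis leaned higher under 5 alternatives. Complement genes leaned higher at a mean of at least 5 CPM, without overlapping genes and after the GC trend was subtracted. Immediate early genes leaned lower without overlapping genes and after the GC trend was subtracted. Matrix, heat shock, clock, lipid receptor, MHC class II and B cell lists also leaned under some alternative. The medians of the 10 leaning lists relative to all genes kept their sign under the alternatives run, with ranges of -0.288 to -0.213 for slow fibre genes, -0.22 to -0.132 for collagen chains, -0.194 to -0.0167 for the mitochondrial genome, -0.152 to -0.034 for embryonic contractile genes, -0.118 to -0.0332 for desaturation and elongation, -0.141 to -0.0495 for myokines, -0.179 to -0.0985 for smooth muscle markers, 0.103 to 0.27 for MHC class I, 0.146 to 0.197 for adipocyte and 0.107 to 0.236 for Schwann cell markers. Of 250 genes chosen by the naming rule, 2 that lay at least 1.5-fold apart changed sign under an alternative: summed with copies, Rps27 differed by -0.0224 and Zc3h11a by -0.13, where the cause was not tested. No paired analysis was possible because each group is 1 library. Depth limits genes well above 0.0536 CPM, the value of 3 counts in the EPA library: the counting intervals of Elovl6 (1.68 CPM in control and 1.23 in EPA; -0.84 to 0.08) and Fads2 (2.69 and 2.46 CPM; -0.46 to 0.22) hold 0. The spread between mice is not measured by any library here.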

Other observations

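The remaining lists did not lean. Creatine, carnosine, polyamine and amino acid genes were higher in 12 of 22, among them the branched-chain amino acid enzymes Bcat2 at 55.1, 45.8 and 58.7 CPM in Young, control and EPA (0.35) and Bckdha at 112, 105 and 128 CPM (0.27), while the glutamine carrier Slc38a2 lay lower at 204, 251 and 192 CPM (-0.38). Of 21 genes of excitation-contraction coupling 15 were lower, with a median of -0.0517; with recovered counts over each library's total this turned to 10 lower with a median of 0.0155. Tendon markers were lower in 6 of 9 (4 with recovered counts), with Comp, a cartilage and tendon matrix protein, at 9.604, 11.8 and 17.3 CPM (0.51).

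A few genes had at most 3 counts in 1 library and at least 5 CPM in both others. Control was the library near 0 for 7 genes, EPA for 3 and Young for 1. Some of these lie near each other. Cacng7 (chr7:3332955-3368221) and Cacng6 (chr7:3424195-3435667) on chromosome 7 both had 0 counts in the control library, against 775 and 3722 in EPA and 814 and 3447 in Young. On chromosome 16, Zdhhc8 (chr16:18220753-18235136) and Trmt2a (chr16:18248679-18254772) had 0 counts in the control library, against 1307 and 297 in EPA and 1121 and 337 in Young. On chromosome 10, Katna1 (chr10:7726000-7763150) had 0 counts in EPA, 289 in control and 320 in Young, and lies near Pcmt1, which was low in control at 43.7, 5.53 and 50.7 CPM in Young, control and EPA. The cause of these zeros was not tested.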
